A study of Mus musculus with 9 samples.

Results

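The 10 genes of de novo lipogenesis described here are 8 enzymes and 2 transcription factors, chosen by name for their role in making fatty acids, with earlier results of these data known, out of 49315 genes counted in brown adipose tissue. The enzymes were Acly, Acss2, Acaca, Acacb, Fasn, Me1, G6pdx and Pgd, and the regulators were Srebf1 and Mlxipl. The first group of mice was given cotadutide, a peptide that activates the receptors of glucagon-like peptide 1 and glucagon, and the second group was given vehicle. All animals were male C57Bl/6J mice made obese by diet, 14 weeks old, acclimated for 3 weeks and kept on food with 60% fat to a weight near 50 g. They lived 1 to a cage, not at a thermoneutral temperature, and were injected under the skin every day for 28 days. There were 5 cotadutide mice and 4 vehicle mice, with 1 library of polyadenylated RNA per mouse from 30 mg of tissue. The dose is not given in the sources used here, and neither lean nor food-restricted mice were analysed here.

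De novo lipogenesis builds fatty acids from the carbon of carbohydrate in the cytosol. Acetyl-CoA is made from citrate or acetate, carboxylated to malonyl-CoA and joined into palmitate by fatty acid synthase, with NADPH from malic enzyme and the pentose phosphate pathway as the reductant. The transcription factors SREBP-1, activated by insulin, and ChREBP, activated by glucose metabolites, switch the enzymes on, and in brown fat the pathway is known to run beside fatty acid oxidation and to be raised in the cold. The comparison asked which of these genes differed in RNA level between cotadutide and vehicle mice.

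Acacb and Mlxipl rose, Me1 fell, and the other 7 genes did not pass the test. Acacb was 1.6-fold higher and Mlxipl 1.28-fold higher in cotadutide mice, while Me1 was 1.79 times lower. Of the 10 genes, 2 were called higher against 9.3% of all 14747 genes tested, and 1 was called lower against 9.34%, or 3 in either direction against 18.6%. With 10 genes these shares lie near those of all genes. Fasn, by far the most abundant of the 10, differed by a log2 fold change of -0.05 (95% interval -0.43 to 0.33). The genes called thus did not move in 1 direction. These tallies depend on the scaling. When libraries were scaled to 8 markers shared by adipocytes, a change that shifted the log2 fold changes of all genes downward together, to a median of -0.42, Acacb was the 1 gene of the 10 called higher, against 1.15% of all genes. Acly, Acss2, Acaca, Me1, G6pdx and Pgd, 6 of the 10, were then called lower, against 54.1% of all genes. Mlxipl, at -0.06, and Fasn, at -0.48, were not called.

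The level of a gene is given as CPM, its counts per 1 M counts (M, mega) of the library after scaling, as mean ± SD with n = 5 for cotadutide and n = 4 for vehicle mice. Log2 fold changes are of cotadutide over vehicle, with standard errors (SE) and adjusted p from edgeR's quasi-likelihood test over all 14747 genes, and an adjusted p of 0.05 was the threshold. Totals were 10.8 to 19.5 M counts per cotadutide library and 16.1 to 25.1 M counts per vehicle library. The smallest count of any of the 10 genes in any library was 1640, so that counting error was small beside the differences between mice.

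All 6 brown adipocyte markers were detected in every library, and their summed level was 8516.1 to 11257.4 CPM in cotadutide mice and 5944.2 to 8906.2 CPM in vehicle mice. The 8 markers shared by all adipocytes summed to 24097.5 to 28744.1 CPM in cotadutide mice and 17644.3 to 21097.9 CPM in vehicle mice, without overlap. Markers of skeletal muscle, a tissue that lies against this depot, summed to 4927.5 to 18187.9 CPM in cotadutide mice and 19559.0 to 44722.1 CPM in vehicle mice, also without overlap, and none of the 10 was at 0. Vehicle mouse 4 stood apart from the other vehicle mice, with the highest muscle sum and with 50.3 CPM of leptin RNA (Lep) against 270.7 to 319.5 CPM in vehicle mice 1 to 3. Summed markers of macrophages were 188.0 to 390.6 CPM in cotadutide mice and 296.1 to 513.2 CPM in vehicle mice, and those of white adipocytes were 164.0 to 551.6 CPM in cotadutide mice and 361.2 to 944.5 CPM in vehicle mice. Fibroblast markers summed to 407.4 to 873.5 CPM in cotadutide mice and 684.1 to 1067.5 CPM in vehicle mice, and endothelial markers to 555.7 to 716.6 CPM in cotadutide mice and 517.8 to 652.1 CPM in vehicle mice. Hepatocyte markers summed to 97.26 to 212.4 CPM in cotadutide mice and 11.01 to 99.69 CPM in vehicle mice. Nearly all of that sum was Cyp2e1, at 153.3 CPM in cotadutide mice and 38.05 CPM in vehicle mice, while albumin (Alb) was at most 0.36 CPM in any mouse. Vehicle mouse 4 had 98.51 CPM of Cyp2e1, within the 96.34 to 210.5 CPM of the cotadutide mice. Vehicle mice 1 to 3 had 15.85, 10.06 and 27.77 CPM. Across all genes, 1372 were called higher and 1378 lower, and with library totals in place of the scaling the numbers were 1049 higher and 1658 lower. In whole tissue, fewer cells of a type and less RNA per cell cannot be told apart, and the part of these marker differences in the results that follow was not tested beyond the values given.

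**Figure D1:**
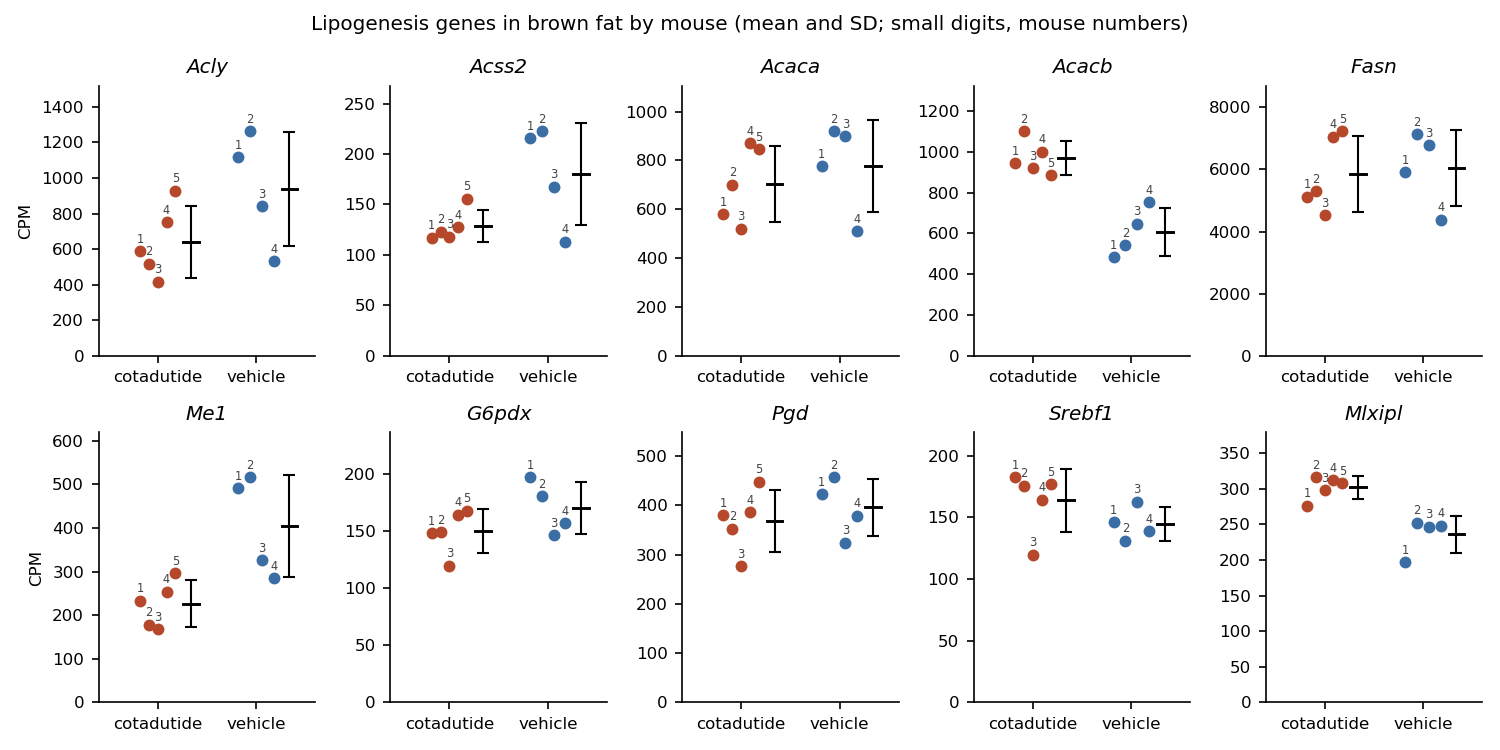
CPM of each of the 10 genes (y axes, linear, from 0) in each cotadutide mouse (left) and vehicle mouse (right); points are mice with their numbers, and the bars beside them are the mean ± SD (n = 5 and n = 4). Only Acacb and Mlxipl had no overlap between the groups.

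Mlxipl encodes ChREBP, and it has 2 RefSeq starts that give the alpha and beta forms of the protein. In adipose tissue the alpha form is known to switch on the upstream start, which gives the shorter and more active beta form. Counts per gene do not separate these starts, so the rise of Mlxipl could not be assigned to a form. The 250 bases before each start are shown because this regulator was called higher and its starts bear on which form a reader would look for next. They are from RefSeq for build GRCm38.p6, plus strand, chr5:135089640-135089889 for the upstream start and chr5:135106641-135106890 for the downstream start. Capitals mark CACGTG, the E-box core that ChREBP and SREBP-1 can bind.
Mlxipl, upstream start: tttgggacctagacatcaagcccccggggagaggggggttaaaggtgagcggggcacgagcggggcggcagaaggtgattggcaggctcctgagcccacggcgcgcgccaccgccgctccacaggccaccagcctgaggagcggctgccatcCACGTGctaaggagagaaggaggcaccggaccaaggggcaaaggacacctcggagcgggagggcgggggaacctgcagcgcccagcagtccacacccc
Mlxipl, downstream start: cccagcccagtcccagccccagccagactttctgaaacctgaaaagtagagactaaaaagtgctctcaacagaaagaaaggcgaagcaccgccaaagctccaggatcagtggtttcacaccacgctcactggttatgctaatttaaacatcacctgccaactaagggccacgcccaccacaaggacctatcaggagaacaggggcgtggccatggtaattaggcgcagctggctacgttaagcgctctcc
The E-box core was found 98 bases before the upstream start and was absent from the window of the downstream start. It was in 1 of the 15 windows that RefSeq gives for the 10 genes, and in 6.02% of all 32851 windows of the same length. The motif reads the same on each strand. Also searched on both strands were TCACCCCAC, a sterol regulatory element, an overlapping 10-letter form of that element with 1 free base, and a carbohydrate response element of 2 E-box cores 5 bases apart. These were in 0 of the 15 windows, and in 0.496%, 0.192% and 0% of all windows. With shares this low, 0 of 15 is no sign that the genes lack such elements. The exact carbohydrate response string was in 0 of the 32851 windows, so it could not single out any gene. A match is a description of these letters and not a binding site, and the other windows of the 10 genes had none of the 4 motifs. The only window of Acaca, chr11:84195188-84195437, lies inside a gene that begins at 84129672. The only window of Acacb, chr5:114165268-114165517, lies inside a gene that begins at 114146535. The outermost starts of Acaca and Acacb were thus not searched.

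Acly and Acss2 supply the acetyl-CoA that lipogenesis starts from. Acly, ATP citrate lyase, cuts citrate exported from mitochondria into acetyl-CoA and oxaloacetate. It had 589.1, 519.2, 417.7, 751.5 and 929 CPM in cotadutide mice 1 to 5, against 1115.5, 1264.5, 840.6 and 533.2 CPM in vehicle mice 1 to 4. The spread was wide in each group, with vehicle mouse 4 among the lower cotadutide mice and cotadutide mouse 5 above vehicle mice 3 and 4. The means were 641.3 ± 201.6 CPM in cotadutide mice and 938.4 ± 322.2 CPM in vehicle mice, a log2 fold change of -0.55 (SE 0.27, 95% interval -1.15 to 0.05), which did not pass edgeR's test (adjusted p = 0.171).

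Acss2, the cytosolic and nuclear acetyl-CoA synthetase, makes acetyl-CoA from acetate. It had 117, 123.2, 118.2, 127.7 and 155.9 CPM in cotadutide mice 1 to 5, against 216, 222.8, 167.7 and 113.3 CPM in vehicle mice 1 to 4. Cotadutide mice 1 to 4 lay close together below vehicle mice 1 to 3, and vehicle mouse 4 was lower than any other mouse. The log2 fold change was -0.49 (SE 0.18, 95% interval -0.88 to -0.10) and did not pass (adjusted p = 0.0768, edgeR). Without vehicle mouse 4 it was -0.66 and passed (adjusted p = 0.00396, edgeR), and DESeq2 called it lower with all 9 mice (adjusted p = 0.0473). Acss2 overlaps Ggt7, Gss and an antisense RNA on the other strand, whose reads may not be separable from its own.

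The ratio of Acss2 to Acly set the RNA of the acetate route against that of the citrate route in each mouse. It was 0.211 ± 0.0489 in cotadutide mice and 0.196 ± 0.0151 in vehicle mice, a log2 difference of 0.09 (exact two-sided permutation test, p = 0.683). No shift in this RNA ratio was detectable with these numbers of mice, and use of the routes was not measured.

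Acaca and Acacb encode the acetyl-CoA carboxylases that make malonyl-CoA. ACC1, from Acaca, is cytosolic and feeds malonyl-CoA to fatty acid synthase, while ACC2, from Acacb, sits at the outer mitochondrial membrane, where malonyl-CoA inhibits the entry of fatty acids through carnitine palmitoyltransferase 1. Acaca had 581.3, 701.3, 520.1, 871.7 and 845.1 CPM in cotadutide mice 1 to 5, against 777.5, 920.5, 899.2 and 510.8 CPM in vehicle mice 1 to 4. The groups overlapped over most of their range. Its log2 fold change was -0.14 (SE 0.20, 95% interval -0.58 to 0.30) and did not pass (adjusted p = 0.640, edgeR).

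Acacb was the clearest difference among the 10 genes. The gene lies on chromosome 5 from 114146535 to 114250761 on the plus strand of mm10, the build of the files. It had 946.2, 1102.3, 918.9, 1000.3 and 886.7 CPM in cotadutide mice 1 to 5, against 483.9, 541.9, 647.8 and 753.2 CPM in vehicle mice 1 to 4. Every cotadutide mouse was above every vehicle mouse, and vehicle mouse 4 came nearest to the cotadutide mice. The means were 970.9 ± 84.46 CPM in cotadutide mice and 606.7 ± 118.9 CPM in vehicle mice, a log2 fold change of 0.68 (SE 0.13, 95% interval 0.39 to 0.96, adjusted p = 0.0156, edgeR). Groups without overlap, in the direction of cotadutide, were seen for 2 of the 10 genes, Acacb and Mlxipl, and for 8.06% of all genes tested. In the direction of vehicle they were seen for 0 of the 10 and 7.79% of all genes, and in either direction for 15.8% of all genes.

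The call of Acacb held in 8 of the 9 fits that left out 1 mouse, and was lost without vehicle mouse 1, where the log2 fold change was 0.58 (adjusted p = 0.0518, edgeR). Without vehicle mouse 4 it was 0.80 (adjusted p = 0.00138, edgeR). Calls over all genes leaned on the same mice, since edgeR called 24.9% of all genes in either direction without vehicle mouse 4, but 0.938%, 4.07% and 5.07% when vehicle mouse 1, 2 or 3 was left out instead. With all 9 mice DESeq2 called 23% and limma-voom 19.5%, and both tools called Acacb. Scaled to the 8 shared adipocyte markers, which moved the median of all genes by -0.42 on the log2 scale, Acacb had a log2 fold change of 0.27 (adjusted p = 0.0308, edgeR). With the summed adipocyte markers as a term in the fit it was 0.01 (adjusted p = 0.996, edgeR), and with the summed muscle markers 0.80 (adjusted p = 0.170, edgeR). Because neither sum overlapped between the groups, such a fit leaves little of the group to test, and the marker level and the treatment cannot be told apart.

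The RNA balance of the 2 carboxylases was given by the ratio of Acacb to Acaca in each mouse. It was 1.628, 1.572, 1.767, 1.147 and 1.049 in cotadutide mice 1 to 5, against 0.6224, 0.5887, 0.7204 and 1.474 in vehicle mice 1 to 4. The ratio was higher in every cotadutide mouse than in vehicle mice 1 to 3, and vehicle mouse 4 lay among the cotadutide mice. The ratio was 1.43 ± 0.315 in cotadutide mice and 0.852 ± 0.419 in vehicle mice, a log2 difference of 0.83, with a raw p of 0.0397 and an adjusted p of 0.119 over the 3 ratios computed (exact two-sided permutation test, smallest possible p 0.00794). Without vehicle mouse 4 the difference was 1.13 (adjusted p = 0.0536, exact permutation test). That value is 3 times the smallest p that 5 against 3 mice allow, so this ratio alone could not pass the correction there.

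**Figure D2:**
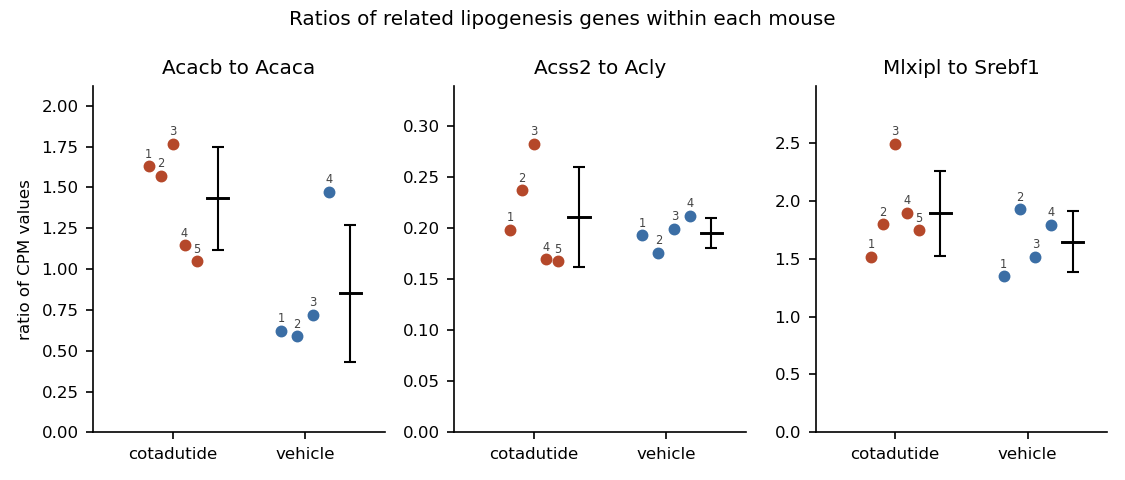
Ratios of CPM within each mouse (y axes, linear) for Acacb to Acaca, Acss2 to Acly and Mlxipl to Srebf1, cotadutide mice left and vehicle mice right, with mean ± SD. For Acacb to Acaca the cotadutide mice sit between 1.049 and 1.767, and vehicle mouse 4, at 1.474, sits among them.

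Fatty acid synthase, the enzyme that joins malonyl-CoA into palmitate, is encoded by Fasn on chromosome 11 from 120805846 to 120824547 on the minus strand of mm10. It had 5120.7, 5300.1, 4532.0, 7051.2 and 7232.8 CPM in cotadutide mice 1 to 5, against 5910.3, 7130.4, 6777.4 and 4379.7 CPM in vehicle mice 1 to 4. The extremes of the 9 mice were cotadutide mouse 5 and vehicle mouse 4, and the groups overlapped almost throughout. Means of 5847.3 ± 1217.2 CPM in cotadutide mice and 6049.4 ± 1225.5 CPM in vehicle mice gave a log2 fold change of -0.05 (SE 0.17, adjusted p = 0.868, edgeR). The 95% interval of this fit reached from 0.742-fold to 1.26-fold, so changes within those bounds were not excluded. These bounds hold for this scaling only. Scaled to the shared adipocyte markers, which shifted all genes down to a median of -0.42, Fasn had a log2 fold change of -0.48. That value lay below the lower bound of -0.43 on the log2 scale and did not pass (adjusted p = 0.0649, edgeR). The 10 genes together summed to 9502.5 ± 1698.5 CPM in cotadutide mice and 9902.4 ± 1744.5 CPM in vehicle mice, and Fasn held 61.5% of that sum in cotadutide mice and 61.1% in vehicle mice.

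Me1, G6pdx and Pgd are sources of the NADPH that fatty acid synthase consumes. Me1 is the cytosolic malic enzyme, which turns malate into pyruvate, and lies on chromosome 9 from 86581371 to 86695953 on the minus strand of mm10. It had 233.5, 177.9, 168.4, 254.1 and 296.7 CPM in cotadutide mice 1 to 5, against 491.6, 515.6, 326.8 and 284.4 CPM in vehicle mice 1 to 4. All cotadutide mice were below vehicle mice 1 to 3, and the groups overlapped only where cotadutide mouse 5 exceeded vehicle mouse 4. Me1 averaged 226.1 ± 53.57 CPM in cotadutide mice and 404.6 ± 116 CPM in vehicle mice, a log2 fold change of -0.84 (SE 0.21, 95% interval -1.31 to -0.37, adjusted p = 0.0266, edgeR). This was the largest difference among the 10 genes in either direction, and Me1 overlaps the gene model A330041J22Rik on the other strand.

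The call of Me1 was lost in 4 of the 9 fits that left out 1 mouse. The adjusted p from edgeR was 0.0765 and 0.0526 when cotadutide mouse 2 or 3 was left out, and 0.0878 and 0.0679 when vehicle mouse 1 or 2 was, while the log2 fold change stayed between -0.99 and -0.73 in all 9 such fits. Without a filter on low counts the adjusted p was 0.0822. With summed muscle markers as a term the log2 fold change was -0.66 (adjusted p = 0.275, edgeR). With summed adipocyte markers it was 0.15 (adjusted p = 0.972, edgeR). As for Acacb, neither sum overlapped between the groups, so these fits leave little of the group to test. DESeq2 (adjusted p = 0.00217) and limma-voom (adjusted p = 0.0336) called Me1 lower with all 9 mice. Scaled to the shared adipocyte markers, where 54.1% of all genes were called lower, Me1 had -1.275 (adjusted p = 0.00294, edgeR).

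The pentose phosphate enzymes G6pdx and Pgd, which make NADPH in the oxidative steps of that pathway, did not pass the test. G6pdx, glucose-6-phosphate dehydrogenase, had 119.7 to 167.9 CPM in cotadutide mice and 146.1 to 196.8 CPM in vehicle mice. Its log2 fold change was -0.18 (95% interval -0.44 to 0.08, adjusted p = 0.287, edgeR). Pgd, 6-phosphogluconate dehydrogenase, had 276.1 to 448.4 CPM in cotadutide mice and 324.3 to 456.6 CPM in vehicle mice, a log2 fold change of -0.10 (95% interval -0.41 to 0.20, adjusted p = 0.634, edgeR). For both genes the groups overlapped broadly, and cotadutide mouse 3 was the lowest of the 9 mice. G6pdx overlaps Ikbkg on the other strand.

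Srebf1 encodes SREBP-1, the insulin-responsive activator of lipogenic genes. It had 182.2, 175.7, 119.7, 164.3 and 176.8 CPM in cotadutide mice 1 to 5, against 145.9, 131.1, 162.6 and 138.5 CPM in vehicle mice 1 to 4. Cotadutide mice 1, 2, 4 and 5 were above all vehicle mice, and cotadutide mouse 3 was below them all. The log2 fold change was 0.18 (SE 0.12, 95% interval -0.09 to 0.45) and did not pass (adjusted p = 0.314, edgeR). The 1a and 1c transcripts of Srebf1 share most exons and were not separated by these counts, and Srebf1 overlaps Rai1 on the other strand.

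Mlxipl had 276.3, 316, 298.3, 311.9 and 308.3 CPM in cotadutide mice 1 to 5, against 196.7, 252.7, 246.7 and 248.2 CPM in vehicle mice 1 to 4. Every cotadutide mouse was above every vehicle mouse, and vehicle mouse 1 lay apart below the other vehicle mice. Means of 302.2 ± 15.87 CPM in cotadutide mice and 236.1 ± 26.38 CPM in vehicle mice gave a log2 fold change of 0.36 (SE 0.09, 95% interval 0.15 to 0.56, adjusted p = 0.0277, edgeR). Scaled to the 8 shared adipocyte markers, which shifted all genes down by slightly more than this, Mlxipl had -0.06 (adjusted p = 0.562, edgeR). Mlxipl overlaps the gene model Gm43500 on the other strand.

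The call of Mlxipl was the least stable of the 3. It was lost when any of cotadutide mice 2 to 5 or vehicle mice 1 to 3 was left out, with adjusted p from 0.0566 without cotadutide mouse 4 to 0.0851 without vehicle mouse 1, and it held without cotadutide mouse 1 or vehicle mouse 4 (edgeR). The log2 fold change was 0.28 without vehicle mouse 1 and 0.38 without vehicle mouse 4. It was 0.12 with summed adipocyte markers as a term (adjusted p = 0.934, edgeR) and 0.39 with summed muscle markers (adjusted p = 0.224, edgeR). The ratio of Mlxipl to Srebf1 was 1.89 ± 0.365 in cotadutide mice and 1.65 ± 0.262 in vehicle mice. Its log2 difference was 0.19 (exact two-sided permutation test, p = 0.325, adjusted p = 0.488), so that no shift in RNA between the 2 regulators was detectable.

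**Figure D3:**
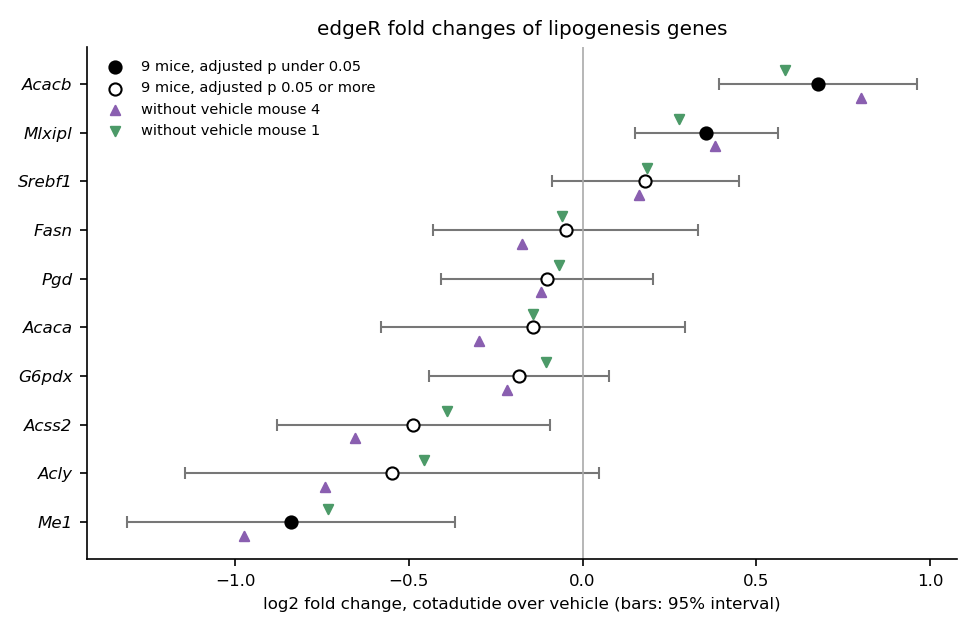
Log2 fold change of cotadutide over vehicle for the 10 genes (x axis) with 95% intervals from edgeR, ordered by that fold change. Filled circles pass the threshold and open circles do not. Triangles are the fits without vehicle mouse 4 (pointing up) and without vehicle mouse 1 (pointing down). Acacb, at 0.68, and Mlxipl, at 0.36, pass the threshold on the higher side and Me1, at -0.84, on the lower. Scaled to adipocyte markers, which shifts all genes down and is not drawn, Mlxipl is at -0.06.

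The genes also differed in how much they varied between mice of a group. Mlxipl and Acacb were the steadiest in cotadutide mice, with a coefficient of variation of 5.25% and 8.70%, against 11.2% and 19.6% in vehicle mice. Acly varied most in each group, by 31.4% in cotadutide mice and 34.3% in vehicle mice. Cotadutide mouse 3 had the lowest level of its group for 7 of the 10 genes, and cotadutide mouse 5 the highest for 6. Among vehicle mice, mouse 2 was highest for 7 genes and mouse 4 lowest for 5, namely Acly, Acss2, Acaca, Fasn and Me1. For these 5 enzymes vehicle mouse 4 lay within the range of the cotadutide mice or below it. Without that mouse the log2 fold changes were -0.74 for Acly (adjusted p = 0.0634), -0.30 for Acaca (adjusted p = 0.206), -0.18 for Fasn (adjusted p = 0.436) and -0.98 for Me1 (adjusted p = 0.0117), all from edgeR, and Acss2 joined the genes called lower.

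**Figure D4:**
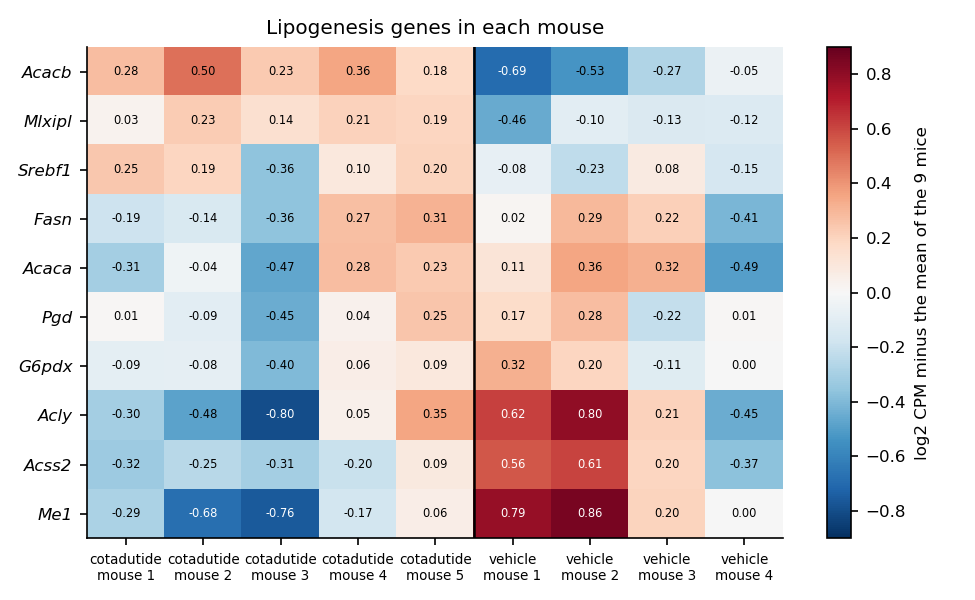
Log2 CPM of each gene in each mouse minus the mean of that gene over the 9 mice, cotadutide mice left of the line and vehicle mice right of it; red is above and blue below the mean. Me1 is 0.79 and 0.86 above its mean in vehicle mice 1 and 2, Acacb is above its mean in all cotadutide mice, and vehicle mouse 4 is 0.41 below the mean for Fasn.

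Levels can be compared between genes only per length, here as CPM per 1 kb of the exon length listed in the files. On that scale Fasn led with 534.1 ± 111.2 in cotadutide mice and 552.6 ± 112 in vehicle mice. Acly followed with 121.5 ± 38.19 in cotadutide mice and 177.8 ± 61.04 in vehicle mice. Acacb, at 100.8 ± 8.768 per kb, came next in cotadutide mice, within the spread of Acly, whereas in vehicle mice, at 62.99 ± 12.34, it came behind Me1 at 105.1 ± 30.16. Me1, at 58.76 ± 13.92, Pgd, Mlxipl and G6pdx lay within 1 spread of each other in cotadutide mice. The lowest levels per kb were those of Srebf1, at 29.06 in cotadutide mice and 25.65 in vehicle mice, and of Acss2, at 12.63 in cotadutide mice and 17.71 in vehicle mice. The listed exon length joins all transcripts and exceeds the longest coding mRNA for some genes, with 10163 against 2931 bases for Acss2 and 6447 against 2218 bases for Pgd. With the mRNA length, Pgd moved up to rank 2 and Me1 down to rank 7 in cotadutide mice, and Acaca passed Acacb in vehicle mice. Srebf1 was then lowest, at 38.09 in cotadutide mice and 33.62 in vehicle mice. Acss2 lay above it, at 43.81 in cotadutide mice and 61.41 in vehicle mice.

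Around these 10 genes, 64 other genes of acetyl-CoA supply, malonyl-CoA handling, NADPH supply, SREBP and ChREBP control and upstream signals were listed, and 63 were tested. Of these, 14 of 63 were called higher, against 9.3% of all genes tested, 2 were called lower, against 9.34%, and 47 were not called, with a median log2 fold change of 0.10, against -0.12 for the 10 genes and 0.00 for all genes tested. Scaling to the shared adipocyte markers shifts these genes down with all others. Genes called higher by less than that shift, namely Crat, Scap, Insr and Stk11, then had negative log2 fold changes, and Nr1h2, Nadk, Nr1h3 and Aldh1l1 had values between 0.01 and 0.08.

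In acetyl-CoA supply 2 of 10 genes were called higher and 0 lower, beside 9.3% higher and 9.34% lower over all genes. Acss1, the mitochondrial acetyl-CoA synthetase, rose by a log2 fold change of 0.65 (adjusted p = 0.0165, edgeR), and lost its call without vehicle mouse 1 (adjusted p = 0.0573). Crat, carnitine acetyltransferase, which buffers mitochondrial acetyl-CoA, had 0.41 (adjusted p = 0.0304, edgeR), with -0.01 relative to the adipocyte markers, and was called in 2 of the 9 fits that left out 1 mouse. Slc25a1, the carrier that exports citrate for Acly, had -0.42 and did not pass (adjusted p = 0.173, edgeR).

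Genes that set the level or the use of malonyl-CoA held 3 calls higher and 1 lower among 10, beside 9.3% higher and 9.34% lower over all genes. Mlycd, malonyl-CoA decarboxylase, which removes malonyl-CoA, rose by a log2 fold change of 0.62 (adjusted p = 0.0205, edgeR). Mcat, which loads malonyl groups in mitochondrial fatty acid synthesis, rose by 0.54 (adjusted p = 0.0140, edgeR). The interacting regulators Thrsp and Mid1ip1, of which Mid1ip1 promotes the polymerization of acetyl-CoA carboxylase, moved apart. Thrsp rose by 0.54 (adjusted p = 0.0179, edgeR) and Mid1ip1 had a log2 fold change of -0.57 (adjusted p = 0.0122, edgeR), 1.48 times lower. Mid1ip1 and Mcat were called in 9 of 9 fits that left out 1 mouse, and Thrsp in 7, missing only where vehicle mouse 1 or 3 was left out. Mlycd was called in 6, and lost without vehicle mouse 1, 2 or 3.

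In the pentose phosphate pathway 1 of 6 genes was called higher, against 9.3% of all genes tested. This was Pgls, the lactonase that acts between G6pdx and Pgd, with a log2 fold change of 0.64 (adjusted p = 0.0215, edgeR). Against the same share, 2 of 8 other NADPH genes were called higher. These were Nadk, the kinase that makes NADP, at 0.45 (adjusted p = 0.0209, edgeR) and Aldh1l1, a folate enzyme that yields NADPH, at 0.49 (adjusted p = 0.0157, edgeR). Pgls and Nadk lost their calls without vehicle mouse 1, 2 or 3, and Aldh1l1 without vehicle mouse 1.

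Among 7 genes of SREBP processing 1 was called higher, against 9.3% of all genes tested. This was Scap, which escorts SREBP to the Golgi, at 0.36 (adjusted p = 0.0205, edgeR), with -0.06 relative to the adipocyte markers. Insig1, which retains SREBP in the endoplasmic reticulum, had -0.12 and did not pass (adjusted p = 0.694, edgeR). Of 9 tested partners of ChREBP and the liver X receptors 2 were called higher, against the same 9.3%. They were the receptors Nr1h3 at 0.45 (adjusted p = 0.0288, edgeR) and Nr1h2 at 0.44 (adjusted p = 0.0197, edgeR). Mlx, the partner with which ChREBP binds DNA, had 0.31 and did not pass (adjusted p = 0.0685, edgeR). Scap and Nr1h2 lost their calls without vehicle mouse 1, 2 or 3, and Nr1h3 without any of these or of cotadutide mice 2 and 3, with adjusted p up to 0.0699, 0.0669 and 0.0923. Pklr, the liver pyruvate kinase and a ChREBP target in liver, was at 0 in 8 of the 9 libraries and was not tested.

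Upstream, 3 of 13 genes of insulin and energy signalling were called higher and 1 lower, beside 9.3% and 9.34% of all genes. Irs2, an insulin receptor substrate, rose by a log2 fold change of 0.85 (adjusted p = 0.0383, edgeR). Stk11, the kinase that activates AMPK, had 0.36 (adjusted p = 0.0267, edgeR) and Insr, the insulin receptor, 0.34 (adjusted p = 0.0445, edgeR), with -0.06 and -0.07 relative to the adipocyte markers. Prkaa2, a catalytic subunit of AMPK that is abundant in muscle, had -0.68 (adjusted p = 0.0416, edgeR), beside a summed muscle marker level that was lower in every cotadutide mouse than in any vehicle mouse. Irs2 and Insr were called in 2 of the 9 fits that left out 1 mouse, Prkaa2 in 3 and Stk11 in 4, and each of these 4 lost its call without vehicle mouse 1, 2 or 3.

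**Figure D5:**
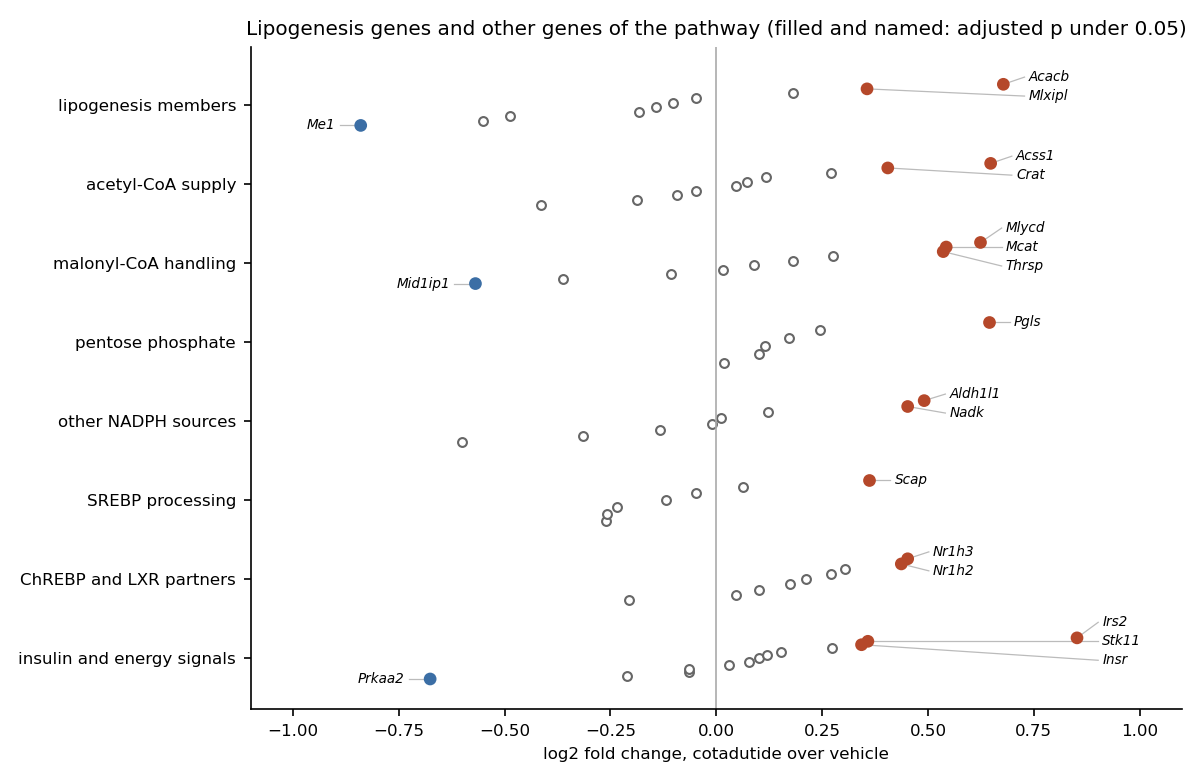
Log2 fold change of cotadutide over vehicle (x axis) for the 10 lipogenesis genes in the top line and 63 other pathway genes by role; filled, named points pass an adjusted p of 0.05 in edgeR. Calls lie mostly on the higher side, with Me1, Mid1ip1 and Prkaa2 on the lower side. Scaled to adipocyte markers, which shifts all genes down and is not drawn, Mlxipl, Crat, Scap, Insr and Stk11 are negative.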

How the data were processed

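Polyadenylated RNA of brown adipose tissue was sequenced from 5 cotadutide and 4 vehicle mice, and the labels gave each mouse its group and number. The deposited files hold raw counts per Ensembl gene, 1 file per library. Named in the submitters' processing notes are build mm10, the aligner STAR 2.5.2b, the counter featureCounts (Subread 1.5.2), Trimmomatic 0.36 and bcl2fastq 2.17. Neither the strand setting nor the release of the annotation is given in the sources used here, so reads of genes that overlap on opposite strands may not be separable. Symbols for 48970 of 49315 identifiers came from the supplied tables. Library pairs all differed by more than counting noise (lowest chi-square per degree of freedom 12.69), so each counted as 1 replicate.

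The 14747 genes left by edgeR's filterByExpr (99.87% of counts) were scaled by trimmed mean of M values (factors 0.915 to 1.06) and tested with edgeR 4.0.16 (glmQLFit robust, glmQLFTest, group as the only term, Benjamini-Hochberg threshold 0.05) in R 4.3.3, after a check on simulated counts. The common biological coefficient of variation was 17%. SE were the log2 fold change over the square root of F. Ratios of CPM were tested by permuting the mice exactly, two-sided. Alternatives were other scalings and filters, marker sums as covariates, DESeq2 1.42.0, limma-voom (limma 3.58.1), a replicate block and each mouse left out. Scaling to adipocyte markers was added after the data were seen.

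The members, lists, ratios and alternatives were chosen with earlier results of these data known. Named were all 10 genes, up to 4 called genes per pathway list by adjusted p, the partners Slc25a1, Thrsp, Mlycd, Insig1, Nr1h3 and Mlx, and the 4 genes nearest in pattern to Fasn and to Acacb; Pklr was named as the 1 gene not tested.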

Additional observations from a re-analysis of the deposited data

Results flagged for a closer look

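In 4 of the 28 groups of values examined, 1 mouse lay far from the others of its group relative to the group's range, by Dixon's test. Chance alone marks about 1 in 20 such groups. Acss2 was 155.9 CPM in cotadutide mouse 5, against 117.0 to 127.7 CPM in the other cotadutide mice. Srebf1 was 119.7 CPM in cotadutide mouse 3, against 164.3 to 182.2 CPM in the other cotadutide mice. Mlxipl was 196.7 CPM in vehicle mouse 1, with the other vehicle mice at 246.7 to 252.7 CPM. The ratio of Acacb to Acaca was 1.474 in vehicle mouse 4, against 0.5887 to 0.7204 in the other vehicle mice.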

How the results depend on the processing

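Without each mouse in turn, 47 to 2116 genes were called higher and 92 to 1724 lower, with the fewest without vehicle mouse 1 and the most higher calls without vehicle mouse 4. Among the 10 lipogenesis genes 0 to 2 were then called higher and 0 to 2 lower. In the same fits the log2 fold change of Fasn ran from -0.175 to 0.013, and the log2 difference of Acss2 to Acly from -0.027 to 0.162. Without a filter on low counts 900 genes were called higher, and 1 and 0 of the 10 higher and lower. DESeq2 called 2 of the 10 lower, Acss2 and Me1. The numbers of the mice gave no clear sign of pairing. Deviations of same-numbered mice correlated by -0.04 to 0.14, and 1 of 4 vehicle mice correlated best with its own number. So few pairs cannot exclude a pairing, and the labels do not say whether there was one. A fit with the replicate number as a block called 516 genes higher and 768 lower, and 1 of the 10 higher, since Mlxipl was lost (adjusted p = 0.0703, edgeR). With the block over 4 pairs the log2 difference of Acacb to Acaca was 0.93 and did not pass (adjusted p = 0.375, exact test flipping the sign of each pair). With 4 pairs that test cannot reach the threshold. With muscle markers as a covariate edgeR called 0 genes higher and 0 lower, and 0 and 0 of the 10, with 2741 genes at an unadjusted p under 0.05; log2 fold changes turned to 0.04 for Fasn and 0.149 for Pgd. With adipocyte markers as a covariate it also called 0 genes in each direction, with 747 at an unadjusted p under 0.05, and log2 fold changes turned to 0.65 for Acly, 0.31 for Acss2, 0.38 for Acaca, 0.52 for Fasn, 0.15 for Me1 and 0.029 for Pgd. Scaled to adipocyte markers 170 genes were called higher and 7985 lower, and 1 and 6 of the 10, with -0.25 for Srebf1 and -0.063 for Mlxipl. The cause was not tested. DESeq2 called 1674 genes higher and 1718 lower. Of the 3 genes called, Acacb kept its call in 17 of 20 alternatives, Me1 in 13 and Mlxipl in 8.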

Other observations

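Fasn and Acacb were set against 10003 other named genes by the root mean square difference of log2 CPM over the 9 mice, each gene centred on its mean. Nearest to Fasn were Ino80, at 0.108, Ebf3, at 0.136, Zfyve16, at 0.138, and Prr14l, at 0.141. The root mean square of Fasn itself was 0.271, so these genes were less close to it, relative to its own variation, than those nearest to Acacb. Nearest to Acacb were Cmbl, at 0.089, Rhpn2, at 0.102, Cad, at 0.11, and Fah, at 0.113, against a root mean square of 0.39 for Acacb itself. Cad encodes the enzyme of the first steps of pyrimidine synthesis, and Fah the last enzyme of tyrosine breakdown. Fah had 94.98 ± 7.256 CPM in cotadutide mice and 54.07 ± 12.26 CPM in vehicle mice, and Cad 74.74 ± 7.787 CPM in cotadutide mice and 46.0 ± 11.12 CPM in vehicle mice (SD, n = 5 and n = 4). These genes were picked for their likeness over the same 9 mice, so their differences are a description, with no test.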
